A study of Mus musculus with 20 samples.

Results

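The 10 genes S100a4, S100a6, S100a10, S100a11, Anxa1, Anxa2, Anxa5, Vim, Lmna and Ahnak were followed by name through both deposited tables of single CD45+ cells from the mouse eye, out of 25392 genes in the series. All 10 were above 0 in both tables. They were compared between microglia, the resident macrophages of nervous tissue, and the classes taken here as blood-derived, a working name for dendritic cells and for the cells annotated under 1 shared name as monocytes, lymphocytes or granulocytes, called the joint class below; the files do not trace where a cell came from. Macrophages of the cornea and ciliary body were compared with the same microglia. All mice were C57BL/6 animals of 8 weeks from a pathogen-free facility. Cells stained for CD45 and CD11b were sorted by CD45 from unlesioned retina (control), from retina 3 or 7 days after laser lesioning (labelled CNV), and from cornea and ciliary body, neither of which is labelled as lesioned. Each of these 5 groups had 4 libraries of 192 wells, and about 6 mice from 3 experiments were used in all, with no record of the mouse or experiment behind a library.

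S100 proteins are small calcium-binding proteins, and annexins bind negatively charged membrane lipids when calcium rises. Several of them work as partners: S100a10 forms a complex with annexin A2 at the plasma membrane, S100a11 binds annexin A1, and the very large scaffold protein Ahnak attaches to the S100a10 and annexin A2 complex and links it to cortical actin. Vimentin, encoded by Vim, forms the intermediate filaments of most leukocytes, and Lmna encodes the A-type lamins that stiffen the nucleus.

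The authors named 511 wells in the retina table and 429 in the eye table, 829 wells in all, of which 111 were control retina wells present in both. Transcripts were summed over the cells of a class in a library pair (both libraries of 1 group that carry the same prefix, P1 to P5), so that every class has 2 values. Levels are given as CPM, counts per 1000000 transcripts. The sums held 10 to 88 cells and 45511 to 464172 transcripts in the retina, and 27 to 86 cells and 64974 to 386115 transcripts in the eye. A count of 3 transcripts, the limit that a count of 0 allows, corresponds to 6.46 to 65.9 CPM in the retina sums and 7.77 to 46.2 CPM in the eye sums.

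The class names were checked against their markers. Sall1, a transcription factor of microglia, was at 551 to 619 CPM in control microglia, at 192 to 229 CPM at day 3 and at 319 to 336 CPM at day 7, and it was at 0 in all 4 sums of dendritic cells. Flt3, the receptor of a dendritic cell growth factor, was at 276 to 528 CPM in dendritic cells and at most 15.3 CPM in microglia. The whole list of 10 dendritic cell markers did not separate dendritic cells from control microglia, at sums of 1846 to 3025 CPM against 2160 to 2195 CPM. In the joint class the sums were 1105 to 1736 CPM. The gene Siglech is in both this list and the list of microglial markers, and its part in these sums was not tested. The authors' separate signature call named only part of the annotated dendritic cells as such. At day 3 these were 14 of 23 in pair P1 and 26 of 59 in P2, and at day 7 14 of 16 and 4 of 10. Ly6c2, a monocyte gene, was at 422 to 2653 CPM in the joint class and at most 162 CPM elsewhere in the retina. The 7 monocyte markers summed to 3004 to 5354 CPM in the joint class, 637 to 1418 CPM in dendritic cells and 868 to 1118 CPM in day 3 microglia. Within that list Fn1 was higher in day 3 microglia (650.5 to 813 CPM) than in the day 3 joint class (340 to 571 CPM), and Plac8 was at 715 to 774 CPM in day 3 dendritic cells. Mrc1, a macrophage gene, was at 122 to 402 CPM in the macrophages of cornea and ciliary body and at 0 in control microglia.

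In the lasered retina these genes set the blood-derived classes apart from the microglia of the same libraries. In dendritic cells 9 of the 9 members tested were higher than in microglia at day 3, where 10.9% of all 3860 genes tested were higher, and 9 of 9 at day 7, where 11% were. In the joint class 8 of 9 were higher at day 3 (7.33% of all genes) and 9 of 9 at day 7 (10.7%). No member was lower in any of these comparisons. The members were chosen with earlier results of these data known. Several, among them Anxa1, Ahnak and S100a4, passed the filter on low counts through the blood-derived classes. The tallies therefore describe these members and are no test of them as a set. The median difference of the members on the log2 scale was 2.80 and 3.28 for dendritic cells at days 3 and 7 and 3.51 and 3.20 for the joint class, while the median of all genes lay between -0.07 and 0.00. Lmna had too few transcripts in the retina to be tested.

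**Figure D1:**
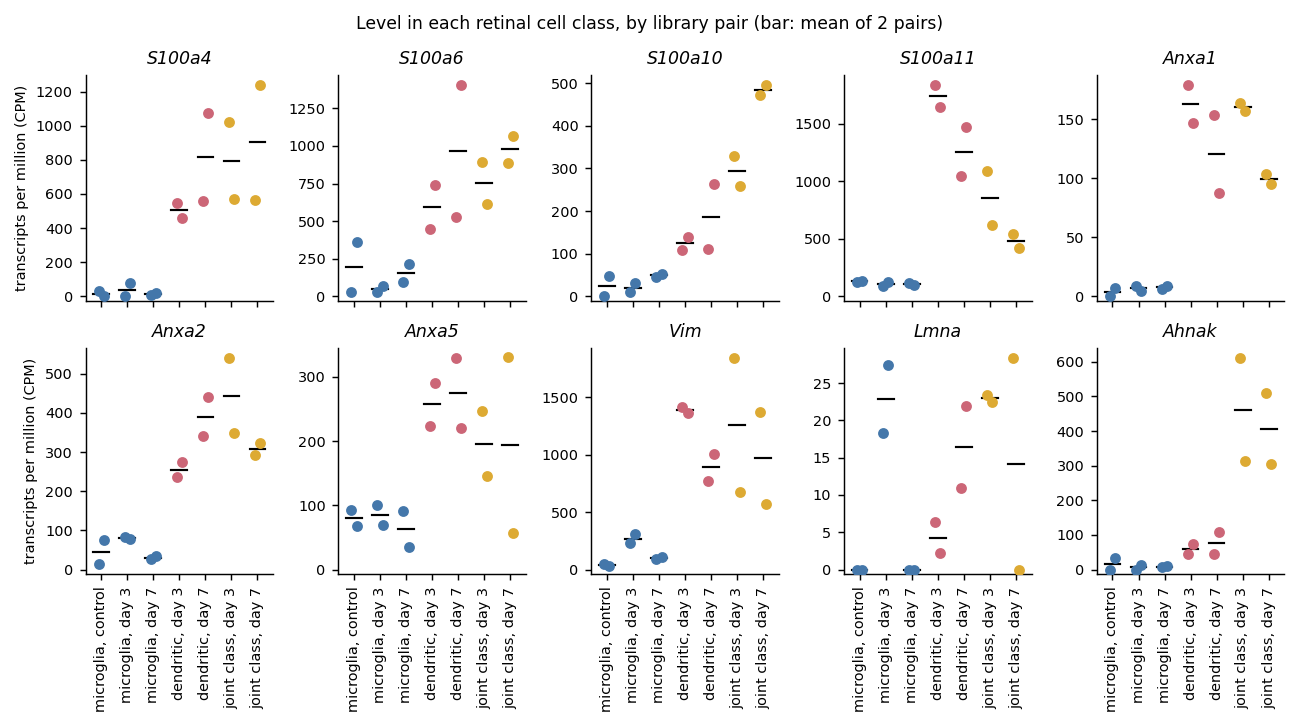
Level of each member, in counts per 1000000 transcripts (CPM), in 7 classes of retinal cells. Each point is 1 library pair (the left point is P1, the right point P2), bars are means of 2 pairs, and each panel has its own linear axis that includes 0. Microglia (blue) lie near the bottom in 9 of the panels, while for Lmna every point is at or below 28.3 CPM.

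S100a11, whose protein binds annexin A1, had the largest log2 difference of the 4 S100 genes between day 3 dendritic cells and microglia. Its levels were 1842 and 1650 CPM in day 3 dendritic cells, 1091 and 616 CPM in the joint class and 91.3 and 128.3 CPM in microglia, with no overlap between the classes. The difference from microglia was 4.04 ± 0.33 on the log2 scale (± standard error, SE; edgeR adjusted p = 5.82e-10) in dendritic cells and 2.86 ± 0.34 (adjusted p = 8.95e-07) in the joint class. At day 7 dendritic cells had 1045 and 1472 CPM, the joint class 538 and 419 CPM and microglia 117 and 97.3 CPM. Dendritic cells were again higher than microglia, by 3.64 ± 0.35 (adjusted p = 1.71e-08), and so was the joint class, by 2.06 ± 0.37 (adjusted p = 1.4e-04).

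S100a4, whose protein binds the motor protein non-muscle myosin, was close to absent from microglia. At day 3 it was at 549.9 and 459 CPM in dendritic cells and 1021 and 571 CPM in the joint class, but at 0 and 77.9 CPM in microglia. All 17 of the microglial transcripts came from pair P2, where 7 cells held them and 1 cell held 11. The log2 difference was 3.44 ± 0.77 in dendritic cells (adjusted p = 0.00914) and 3.95 ± 0.79 in the joint class (adjusted p = 0.00646). Day 7 microglia held 3 transcripts (6.51 and 17.7 CPM) against 561 and 1077 CPM in dendritic cells, a ratio of summed levels of 65.2 with a 95% exact counting interval of 21.7 to 321 (adjusted p = 0.00186). The joint class at day 7 had 566 and 1238 CPM, a ratio of 70.1 (interval 23.5 to 345; adjusted p = 0.00202). These intervals cover counting error only. The contrast between dendritic cells and microglia was larger at day 7 by 2.71 ± 1.63 on the log2 scale, which did not pass the test (adjusted p = 0.686).

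S100a6, another calcium-binding S100 gene, was at 448 and 743 CPM in day 3 dendritic cells and 892 and 616 CPM in the joint class, against 27.4 and 68.7 CPM in microglia. The differences were 3.60 ± 0.88 (adjusted p = 0.0189) and 3.75 ± 0.90 (adjusted p = 0.024). By day 7 the levels were 528 and 1406 CPM in dendritic cells, 887 and 1067 CPM in the joint class and 97.6 and 212.4 CPM in microglia. The differences of 2.75 ± 0.82 (adjusted p = 0.0449) and 2.57 ± 0.80 (adjusted p = 0.0496) lay close to the threshold, and neither was called with another scaling of the sums (adjusted p = 0.0505 and 0.055). In dendritic cells and the joint class the higher pair was P2, and the summed level of 7 corneal epithelial marker genes, described with the microglia below, was 769 and 495 CPM in those sums of P2. In P1 it was 11 and 9.44 CPM, and its part in the S100a6 values was not tested.

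S100a10, the annexin A2 partner, had the opposite order of the blood-derived classes from S100a11, with the joint class above dendritic cells. Day 3 levels were 329 and 258 CPM in the joint class, 108.7 and 140.0 CPM in dendritic cells and 9.13 and 32.1 CPM in microglia. The log2 difference from microglia was 3.51 ± 0.57 for the joint class (adjusted p = 4.86e-05) and 2.48 ± 0.57 for dendritic cells (adjusted p = 0.00131). The dendritic cell call was lost with sums thinned to the smallest total (1.33, edgeR adjusted p = 0.313). It was also lost with only the cells whose signature call gave the same class (2.19, adjusted p = 0.05025). At day 7 the joint class was at 472 and 495 CPM, dendritic cells at 110.0 and 263.7 CPM and microglia at 45.5 and 53.1 CPM. The differences were 3.17 ± 0.49 (edgeR adjusted p = 1.94e-05) and 1.89 ± 0.60 (adjusted p = 0.0215). That dendritic cell call was lost with only wells of at least 1000 transcripts and at most 25% mitochondrial ones (1.66, edgeR adjusted p = 0.0517). The difference was 1.27 without dendritic cell pair P2, 1.75 without microglial pair P1 and 2.00 without microglial pair P2.

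Anxa1, which encodes a ligand of formyl peptide receptors that restrains inflammation, was read in microglia from 2 transcripts at each day. Day 3 dendritic cells had 179 and 147 CPM and the joint class 164 and 157 CPM, against 9.13 and 4.58 CPM in microglia. The ratio of summed levels was 25.4 (95% exact counting interval 6.83 to 212; adjusted p = 2.11e-06) for dendritic cells and 26.3 (6.63 to 228; adjusted p = 3.22e-05) for the joint class. At day 7 the ratios were 17.6 (4.21 to 156; adjusted p = 1.92e-04) and 13.5 (3.17 to 121; adjusted p = 0.0015). In both blood-derived classes the pairs lay between 87.9 and 179 CPM, and in every microglial sum, control included, at or below 9.13 CPM.

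Anxa2, the partner of S100a10 and a surface receptor of plasminogen, was at 237 and 274 CPM in day 3 dendritic cells and 539.8 and 347 CPM in the joint class, against 82.2 and 77.9 CPM in microglia. The differences were 1.80 ± 0.38 (adjusted p = 7.83e-04) and 2.42 ± 0.40 (adjusted p = 7.2e-05). Day 7 levels were 341 and 439.5 CPM in dendritic cells, 293 and 324 CPM in the joint class and 26.0 and 35.4 CPM in microglia, and the differences were 3.75 ± 0.51 (adjusted p = 2.91e-06) and 3.20 ± 0.52 (adjusted p = 3.47e-05).

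Anxa5, whose protein binds phosphatidylserine on dying cells, had the smallest difference among the member annexins in the joint class at day 3. Microglia held it at 100.5 and 68.7 CPM on that day. Dendritic cells had 224 and 291 CPM, a difference of 1.80 ± 0.46 (adjusted p = 0.00518). In the joint class it was at 246 and 145.6 CPM, and the difference of 1.22 ± 0.54 did not pass the test (adjusted p = 0.141). At day 7 dendritic cells had 330.0 and 219.7 CPM against 91.1 and 35.4 CPM in microglia (2.22 ± 0.56, adjusted p = 0.00455). The joint class split into 330.4 CPM in pair P1 and 57.2 CPM in pair P2, so that it overlapped with microglia. Its difference of 1.64 ± 0.56 (adjusted p = 0.0352) rested on pair P1 and was -0.37 without it (adjusted p = 0.838). It was not called without microglial pair P2 either (adjusted p = 0.218).

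Vim encodes the filament protein vimentin. Its day 3 levels were 1413 and 1368 CPM in dendritic cells and 1842 and 672 CPM in the joint class, against 228 and 311.5 CPM in microglia. The differences were 2.44 ± 0.46 (adjusted p = 0.00131) and 2.15 ± 0.47 (adjusted p = 0.00586). At day 7, with 769.9 and 1011 CPM in dendritic cells, 1369 and 572 CPM in the joint class and 91.1 and 106.2 CPM in microglia, they were 3.28 ± 0.56 (adjusted p = 6.99e-04) and 3.25 ± 0.55 (adjusted p = 7.01e-04). In the joint class at day 3 the call was lost with the library pair as a block (2.03, adjusted p = 0.088) and without microglial pair P1 (adjusted p = 0.0722). In that class the lower pair was P2 on both days, and it was still above every microglial sum.

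Ahnak was higher in the joint class than in microglia and in dendritic cells. In the joint class it was at 610.2 and 314 CPM at day 3 and 509.7 and 305 CPM at day 7. Dendritic cells had 44.8 and 73.2 CPM at day 3 and 44.0 and 109.9 CPM at day 7, and microglia 0 to 13.7 CPM. For the joint class the ratio to microglia was 50.1 at day 3 (95% exact counting interval 16.5 to 248; adjusted p = 1.92e-06) and 58.9 at day 7 (15.7 to 496; adjusted p = 3.04e-06). For dendritic cells it was 7.22 (2.30 to 36.4; adjusted p = 0.0118) and 8.80 (1.82 to 83.7; adjusted p = 0.037). The dendritic cell calls did not hold with DESeq2 (adjusted p = 0.0578 and 0.0606), without pair P2 of the dendritic cells (0.178 and 0.246) or without microglial pair P1 (0.0863 and 0.187). At day 7 the call was also lost without microglial pair P2 (0.104), and with only the cells whose signature call gave the same class the log2 difference was -2.93 (adjusted p = 0.487).

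Lmna stayed at the edge of detection in the retina. It was at 0 in control and day 7 microglia and at 18.3 and 27.5 CPM, from 2 and 6 transcripts, in day 3 microglia. Day 3 dendritic cells held 2 transcripts and the day 3 joint class 4. These values were not tested.

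**Figure D2:**
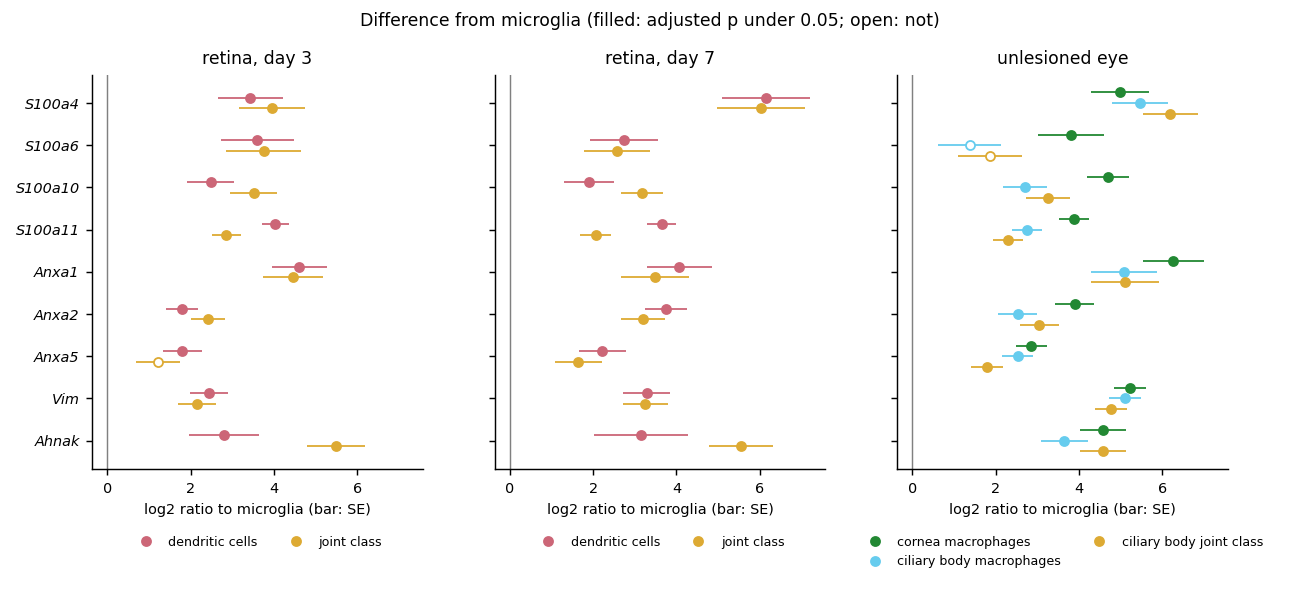
Log2 difference of each tested member from microglia (points; bars are SE) at day 3 and day 7 in the retina and in the unlesioned eye, in which the cornea and ciliary body classes share 1 set of control microglia. Filled points passed the test at an adjusted p under 0.05 and open points did not; Lmna, at 0 in control microglia, is left out. All points lie to the right of 0, from 1.22 to 6.27.

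These calls rest on few cells. Leaving out 1 pair at a time left 5 to 8 members called for dendritic cells at day 3 (5 without dendritic cell pair P2) and 5 to 7 at day 7 (5 without microglial pair P2), with 6 to 8 for the joint class over both days. The dendritic cell calls lost in at least 1 of these fits were those of S100a4, S100a6, Anxa5 and Ahnak at day 3 and of S100a6, S100a10, Anxa5 and Ahnak at day 7. For the joint class they were those of S100a4, S100a6 and Vim at day 3 and of S100a4, S100a6 and Anxa5 at day 7. Dendritic cells also held more transcripts per cell, with a median of 7460.5 at day 3 against 2741 in microglia, and with all sums thinned to the smallest total 5 to 6 of the 8 to 9 members tested were called at day 3 over 10 random draws. In cells thinned to 1000 transcripts, Vim was detected in 66.9% of day 3 dendritic cells, 41.8% of the joint class, 18.7% of day 3 microglia and 2.46% of control microglia. Without thinning these shares were 93.9%, 65.2%, 44.4% and 4.17%. For S100a11 the thinned shares were 74.5%, 47.8%, 12% and 10.5%, and the unthinned ones 96.3%, 80.4%, 34.6% and 16.7%. With wells in which markers of other cells were under 1% of transcripts, an alternative added after seeing the data, 9 of 9 members were called for dendritic cells at day 3 and 8 of 9 at day 7, and 8 of 9 for the joint class on each day.

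RefSeq's promoter table, on GRCm38.p6, held entries for 9 of the 10 members. The 250 bases before the start site were searched on both strands for TGANTCA, the core sequence bound by AP-1 factors, as these members differed from microglia in the same direction. The sequence was in the window of 2 members, S100a11 and Anxa2, and in 6.75% of the 32851 promoters of the table. The GC box GGGCGG was in the windows of 4 members and in 32.7% of all. Both windows with TGANTCA are shown 5′ to 3′ on the plus strand with the match in capitals, S100a11 at chr3:93520246-93520495, with matches starting 136 and 38 bases before the start site, and Anxa2 at chr9:69453433-69453682, with a match starting 95 bases before it. A match describes letters and not binding.
S100a11: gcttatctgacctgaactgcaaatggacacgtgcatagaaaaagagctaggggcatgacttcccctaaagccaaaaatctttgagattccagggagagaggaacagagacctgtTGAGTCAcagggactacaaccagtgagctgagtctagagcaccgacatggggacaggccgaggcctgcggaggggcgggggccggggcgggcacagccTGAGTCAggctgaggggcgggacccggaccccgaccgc
Anxa2: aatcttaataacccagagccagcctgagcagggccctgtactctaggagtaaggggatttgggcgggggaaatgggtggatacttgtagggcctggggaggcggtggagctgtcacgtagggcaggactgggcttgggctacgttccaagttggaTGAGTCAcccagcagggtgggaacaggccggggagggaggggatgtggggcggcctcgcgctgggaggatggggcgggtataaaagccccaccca

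The next comparison asked whether microglia themselves moved after the lesion. Vim was called, and it was higher at day 3 than in control retina, where 7.49% of all genes tested were higher. The other 8 members tested were not called. Several of them passed the filter on low counts through the blood-derived classes and were read in microglia from few transcripts, with 2 at day 3 and 1 in control for Anxa1, 3 and 5 for Ahnak, 8 and 7 for S100a10 and 17 and 2 for S100a4, so their missing calls say little. It was at 45.9 and 33.98 CPM in control microglia, 228 and 311.5 CPM at day 3 and 91.1 and 106.2 CPM at day 7, so that the pairs of the 3 times did not overlap. The rise at day 3 was 2.80 ± 0.73 on the log2 scale (adjusted p = 0.0196). It rested on 8 transcripts in control microglia, and it was not called without control pair P1 (2.99, adjusted p = 0.093), control pair P2 (2.58, adjusted p = 0.29) or day 3 pair P2 (2.58, adjusted p = 0.103). No member was called between day 7 and control (edgeR, with 0.233% of all genes called in either direction), and none had an unadjusted p under 0.05. Between day 7 and day 3 none was called either (4.48% of all genes), and 2 members, Vim and Anxa2, had an unadjusted p under 0.05. Vim was lower at day 7 by a log2 difference of -1.46 ± 0.57 (adjusted p = 0.17). DESeq2 called 0 members in both comparisons.

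Both pairs of Vim in day 3 microglia were below every pair of the blood-derived classes. With wells in which other cells' markers were under 1%, the alternative added after seeing the data, the rise of Vim was 4.20 (edgeR adjusted p = 0.0242). It then rested on 28 and 51 of the 32 and 88 control wells. The control wells of the eye fit kept under the same limit held 1 Vim transcript in each pair. With sums thinned to the smallest total the rise was 1.97 and was not called (edgeR adjusted p = 0.154). Lmna had 8 transcripts at day 3 and 0 in control microglia, at least 1.73-fold higher when 3 transcripts are set for the control sums. Anxa2 was at 15.3 and 74.8 CPM in control microglia, 82.2 and 77.9 CPM at day 3 and 26.0 and 35.4 CPM at day 7.

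S100a6 showed a wide spread between the pairs of control microglia, at 30.6 and 360.2 CPM in P1 and P2. The summed level of 7 corneal epithelial marker genes (Krt12, Krt5, Krt14, Krt15, Aldh3a1, Dsp and Perp) differed between the same sums, at 15.3 and 1543 CPM. In day 7 microglia, S100a6 was at 97.6 and 212.4 CPM and the epithelial list at 384 and 655 CPM, and in day 3 microglia S100a6 was at 27.4 and 68.7 CPM and the list at 54.8 and 4.58 CPM. Its change from control to day 3 was -2.12 ± 0.99 (adjusted p = 0.189), and without control pair P2 it was 0.81 (adjusted p = 0.819). It was called lower at day 3 without control pair P1 (-2.73, adjusted p = 0.0204), without the filter on low counts (-1.89, adjusted p = 0.0208) and with single libraries (-2.35, adjusted p = 0.0244). The part of epithelial transcripts in these values was not tested.

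Between days 3 and 7 no change within the blood-derived classes passed the test. No member was called by edgeR in dendritic cells (0.155% of all genes called in either direction; 0 members with an unadjusted p under 0.05) or in the joint class (1.74%; 1 member, S100a11). The change of the contrast with microglia between the days was called for no member in dendritic cells (0.207% of all genes; 1 member, Anxa2, with an unadjusted p under 0.05) or in the joint class (1.58%; 0 members). DESeq2 called 0 members in each of these 4 comparisons. In the joint class S100a11 was lower at day 7, 538 and 419 CPM against 1091 and 616 CPM, without passing the test (adjusted p = 0.188). In dendritic cells Vim was at 769.9 and 1011 CPM at day 7 against 1413 and 1368 CPM at day 3, again without passing the test (adjusted p = 0.78).

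Dendritic cells and the joint class were then compared with each other at day 3, when 2.05% of all genes were higher and 2.46% lower in dendritic cells. S100a11 was higher in dendritic cells by 1.18 ± 0.28 (adjusted p = 0.0107), a call that was lost without pair P1 of dendritic cells (adjusted p = 0.0519) or pair P2 of the joint class (0.78, adjusted p = 0.34), and with DESeq2. Ahnak was lower in dendritic cells, by a log2 difference of -2.69 ± 0.46 (adjusted p = 5.89e-04). S100a10 was lower without passing the test (-1.03 ± 0.41, adjusted p = 0.18). The other members were not called.

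The authors' clusters show how the members vary within a class. The clusters were made from the same cells and genes, so these values are a description with no test. Within the joint class the 9 cells of retina cluster 8, which had the highest summed level of 7 monocyte markers in the retina (7534 CPM), had 2376 CPM of Vim, 1367 CPM of S100a4, 918 CPM of Ahnak, 806 CPM of Anxa2 and 403 CPM of Anxa1. The 14 cells of cluster 13, where the 7 granulocyte markers summed to 3196 CPM, had 328 CPM of Vim and 119.4 CPM of S100a4. Ahnak was at 448 CPM and S100a10 at 298 CPM there. The 9 cells of cluster 10, with 2567 CPM of the granulocyte markers, went the other way, with 2332 CPM of Vim and 714 CPM of S100a4. In the 20 cells of cluster 12, where the 7 T cell markers summed to 2941 CPM, S100a4 was at 749 CPM, S100a6 at 985 CPM and Vim at 656 CPM.

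Among dendritic cells, clusters 1, 7 and 9 had 1456, 1758 and 901 CPM of S100a11 and 1467, 1185 and 1484 CPM of Vim. Among the 6 clusters of microglia, Vim was at 337 CPM in cluster 6 and between 54.8 and 138 CPM in the others. In cluster 14, with 18 cells, S100a4 was at 248 CPM, against 10.96 to 21.7 CPM in the other 5, but all 11 of its transcripts came from 1 cell. For S100a11, 8 of the 12 transcripts of that cluster came from 1 cell, and the level was 270.5 CPM with it and 107.6 CPM without it, against 85.7 to 120.6 CPM in the other 5.

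In the unlesioned eye the contrast with microglia was found again in the classes annotated as macrophages. Their clusters, described below, differed in these genes and in dendritic cell markers. In cornea macrophages 10 of the 10 members were higher than in control retinal microglia, where 16.4% of all 4832 genes tested were higher. In ciliary body macrophages 8 of 10 were higher (15.4% of all genes) and in the ciliary body joint class 8 of 10 (15.0%). The 3 comparisons share the same control microglia and are set side by side for that reason. Ciliary body libraries carry prefixes P3 and P4, those of control retina P1 and P2 and those of cornea P2 and P5. Between ciliary body and either of the others, tissue therefore cannot be told apart from library prefix. As in the retina, the tallies are a description. The members were chosen with earlier results known, and Lmna, Anxa1 and S100a4 passed the filter through the classes outside the retina. The median log2 difference of the members was 4.64, 3.20 and 3.91, or 4.64, 2.72 and 3.15 with Lmna, at 0 in microglia, set at its lower bound, while the median of all genes was 0.05, -0.04 and 0.01.

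**Figure D3:**
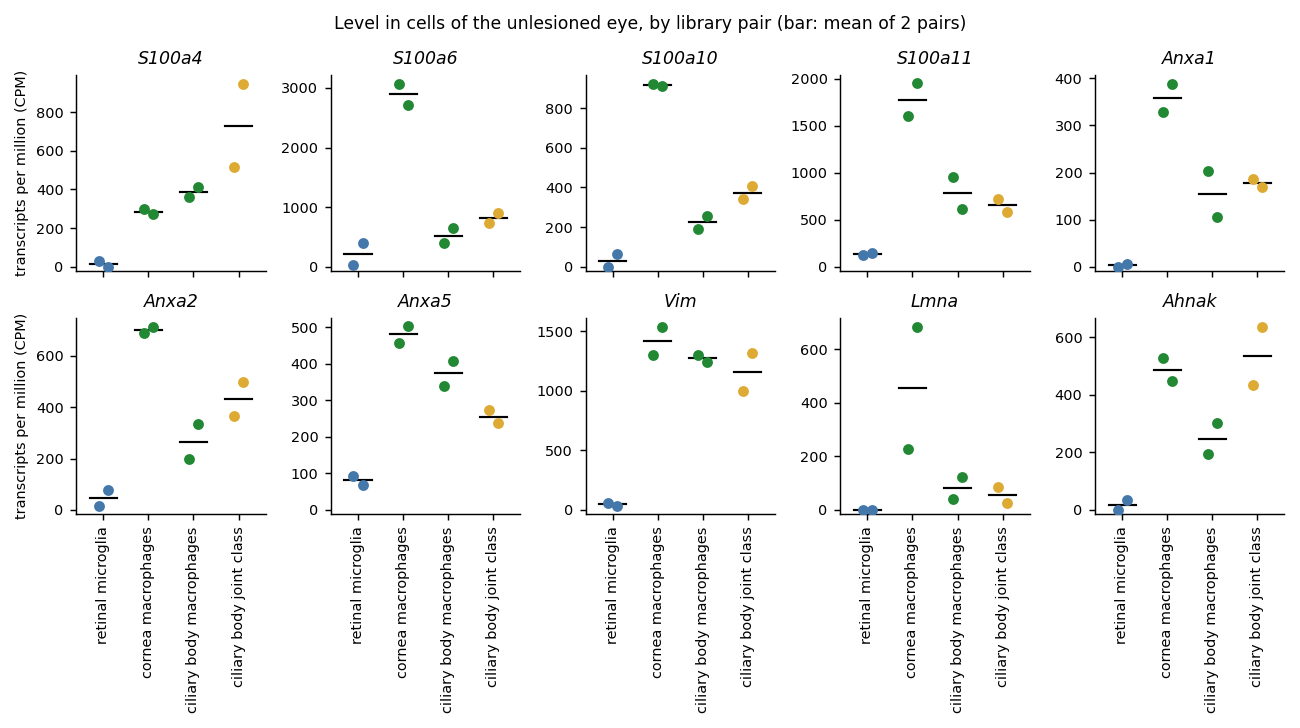
Level of each member, in counts per 1000000 transcripts (CPM), in control retinal microglia and in 3 classes of cells from cornea and ciliary body. Each point is 1 library pair (the left point is the pair with the lower number), bars are means of 2 pairs, and each panel has its own linear axis that includes 0. Both points of cornea macrophages are highest for S100a6, S100a10, S100a11, Anxa1, Anxa2, Anxa5 and Lmna, while Vim lies between 995 and 1540 CPM in the 3 classes outside the retina.

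Vim was at 61.6 and 34.3 CPM in control microglia as named in the eye table, 1305 and 1540 CPM in cornea macrophages, 1304 and 1246 CPM in ciliary body macrophages and 995 and 1315 CPM in the ciliary body joint class. The differences from microglia were 5.22 ± 0.39 (adjusted p = 5.97e-08), 5.10 ± 0.39 (adjusted p = 6.82e-08) and 4.77 ± 0.39 (adjusted p = 1.84e-07). The joint class overlapped with both macrophage classes in Vim, and no class outside the retina overlapped with microglia.

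S100a4 was read from 2 transcripts in control microglia. Its levels were 298 and 272 CPM in cornea macrophages, 362 and 412 CPM in ciliary body macrophages and 514 and 947 CPM in the ciliary body joint class, in this order without overlap. The ratios to microglia were 30.0 (95% exact counting interval 8.11 to 251; adjusted p = 4.08e-05), 41.2 (11.3 to 342; adjusted p = 1.08e-05) and 77.7 (21.3 to 646; adjusted p = 2.05e-06).

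S100a11 was at 123.1 and 151.1 CPM in microglia, 1603 and 1953 CPM in cornea macrophages, 954 and 611 CPM in ciliary body macrophages and 721.5 and 586 CPM in the joint class there. The differences were 3.89 ± 0.36 (adjusted p = 4.65e-07), 2.75 ± 0.36 (adjusted p = 1.69e-05) and 2.30 ± 0.36 (adjusted p = 1.28e-04). S100a10 was at 923 and 913 CPM in cornea macrophages, 192 and 256 CPM in ciliary body macrophages and 0 and 61.8 CPM in microglia, with differences of 4.70 ± 0.50 (adjusted p = 2.3e-06) and 2.70 ± 0.52 (adjusted p = 8.15e-04). In the ciliary body joint class it was at 341 and 405 CPM (3.25 ± 0.52, adjusted p = 1.74e-04).

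S100a6 reached 3072 and 2720 CPM in cornea macrophages, 3.81 ± 0.80 above microglia (adjusted p = 0.0168), a call lost without cornea pair P2 (adjusted p = 0.0969) or P5 (adjusted p = 0.1004). In ciliary body macrophages it was at 404 and 642 CPM and in the joint class at 742 and 909.6 CPM, against 30.8 and 391.5 CPM in microglia. Both pairs of each class were above both of microglia, but the differences of 1.38 ± 0.76 (adjusted p = 0.249) and 1.85 ± 0.77 (adjusted p = 0.146) did not pass the test. Without microglial pair P2 they were 4.51 and 4.96. Microglia were then read from pair P1 alone, at 30.8 CPM, below the 46.2 CPM that 3 transcripts give in that sum. The epithelial marker level was higher in P2, and its part in these values was not tested.

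Of the annexins, Anxa1, read from 1 transcript in microglia, was at 328 and 389 CPM in cornea macrophages, 204 and 106.2 CPM in ciliary body macrophages and 187 and 168.2 CPM in the joint class. The ratios were 75.5, 30.6 and 37.3 with counting intervals that begin at 13.3, 5.37 and 6.43 (adjusted p = 3.64e-06, 9.18e-05 and 1.16e-04). Anxa2 was at 689.9 and 714 CPM in cornea macrophages, a difference of 3.89 ± 0.46 (adjusted p = 5.29e-06). In ciliary body macrophages it was at 196 and 334 CPM (2.53 ± 0.47, adjusted p = 5.07e-04) and in the joint class at 367 and 498 CPM (3.05 ± 0.47, adjusted p = 1.05e-04). Anxa5 ran from 457 and 505 CPM in cornea macrophages through 339 and 409 CPM in ciliary body macrophages to 274 and 237 CPM in the joint class, and was at 92.3 and 68.7 CPM in microglia. Its differences were 2.85 ± 0.37 (adjusted p = 1.44e-05), 2.52 ± 0.37 (adjusted p = 5.94e-05) and 1.80 ± 0.39 (adjusted p = 0.002). The last of these was not called without microglial pair P2 (adjusted p = 0.0534).

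Ahnak was at 526 and 447 CPM in cornea macrophages, 192 and 303 CPM in ciliary body macrophages and 434 and 635.5 CPM in the ciliary body joint class, against 0 and 34.3 CPM in microglia. The differences were 4.58 ± 0.55 (adjusted p = 5.67e-06), 3.65 ± 0.56 (adjusted p = 9.74e-05) and 4.57 ± 0.55 (adjusted p = 6.95e-06). In the ciliary body the joint class was above macrophages by 0.92 ± 0.35 without passing the test (adjusted p = 0.193), and no member was called by edgeR in that comparison, where 4.18% of all genes were called. With the library pair as a block, 1 member, Ahnak, was called (0.93, adjusted p = 0.0208), and it was higher in the joint class in both pairs. Without the block Ahnak and Anxa5, 2 members, had an unadjusted p under 0.05, and DESeq2 called 0.

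Lmna, which had few transcripts in the retina, could be tested only in the eye comparisons. It was at 228 and 685 CPM in cornea macrophages, 42.3 and 121.7 CPM in ciliary body macrophages and 86.8 and 24.9 CPM in the joint class, with 0 transcripts in both sums of control microglia. With 3 transcripts set for microglia as a group, it was at least 32.2-fold higher in cornea macrophages (adjusted p = 0.0189). This call was lost without control microglial pair P1 (adjusted p = 0.0509) or P2 (adjusted p = 0.109). The lower bounds were 6.30-fold and 3.85-fold in the ciliary body classes, where the test was not passed (adjusted p = 0.108 and 0.199).

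Between the compartments 3 members were called, all lower in ciliary body than in cornea macrophages, where 1.82% of all genes were lower. They were S100a10 (-1.99 ± 0.37, adjusted p = 0.00474), Anxa2 (-1.37 ± 0.34, adjusted p = 0.0408) and S100a11 (-1.14 ± 0.30, adjusted p = 0.0467). S100a6 and Lmna had larger differences with more spread, -2.44 ± 0.72 (adjusted p = 0.215) and -2.39 ± 0.77 (adjusted p = 0.259). Without cornea pair P5 no member was called, and without ciliary body pair P3 1 was.

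Transcripts of the corneal epithelium, the sheet of keratinocytes over the cornea, moved with these values. The 7 epithelial markers summed to 19093 and 26083 CPM in cornea macrophages, 0 and 1878 CPM in ciliary body macrophages and 15.3 and 1717 CPM in control microglia. Wells of the same libraries that the authors left unnamed and in which the markers made up at least 5% of transcripts, 224 in all with 61 of them in pair P2, had 84052 and 97704 CPM of the list. These wells held S100a6 at 10935 and 10833 CPM, S100a11 at 3577 and 4692 CPM, S100a10 at 2789 and 2586 CPM, Anxa2 at 2527 and 2940 CPM and Ahnak at 1466 and 1576 CPM, but S100a4 at 34.6 and 23.1 CPM and Vim at 86.1 and 96.1 CPM.

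If every epithelial marker transcript in the macrophage wells came with the members at the ratio seen in the epithelial wells, this would amount to 83.2 and 109.9% of the macrophage level of Anxa2 and 80.9 and 106.3% of that of S100a6. For Ahnak it would be 63.3 and 94.2%, for S100a10 68.6 and 75.6%, for Anxa1 61.6 and 56.6% and for S100a11 50.7 and 64.2%. For Lmna the values were 16.2 and 7.18%, for Anxa5 6.92 and 7.75%, for S100a4 2.64 and 2.27% and for Vim 1.498 and 1.67%. This measure was chosen after the levels had been seen. It assumes 1 fixed profile of epithelial RNA, and values above 100% cannot be shares. The part of epithelial transcripts in the levels of cornea macrophages was not tested and cannot be measured from these files.

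The comparisons were repeated with wells in which markers of other cells were under 1% of transcripts, also an alternative added after seeing the data. Of 121 cornea macrophage wells, 22 remained (7 in pair P2 and 15 in pair P5), and their epithelial markers still summed to 7639 and 7874 CPM. All 10 members were again higher than in microglia, Vim by 7.07 ± 0.53 (2625 and 1878 CPM; adjusted p = 2.57e-07) and Anxa2 by 2.42 ± 0.61 (235.6 and 407 CPM; adjusted p = 0.00888). Of Vim the microglial wells kept here held 1 transcript in each pair, and of Anxa1 and Lmna 0. The size of such differences is therefore poorly known. Between ciliary body and cornea macrophages no member was called in the wells under 1%. The difference of Anxa2 was -0.22 ± 0.44 (adjusted p = 0.907), that of S100a11 -0.67 ± 0.34 (adjusted p = 0.452) and that of S100a10 -1.33 ± 0.40 (adjusted p = 0.164), while that of Lmna was -2.65 ± 0.51 (adjusted p = 0.0677).

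**Figure D4:**
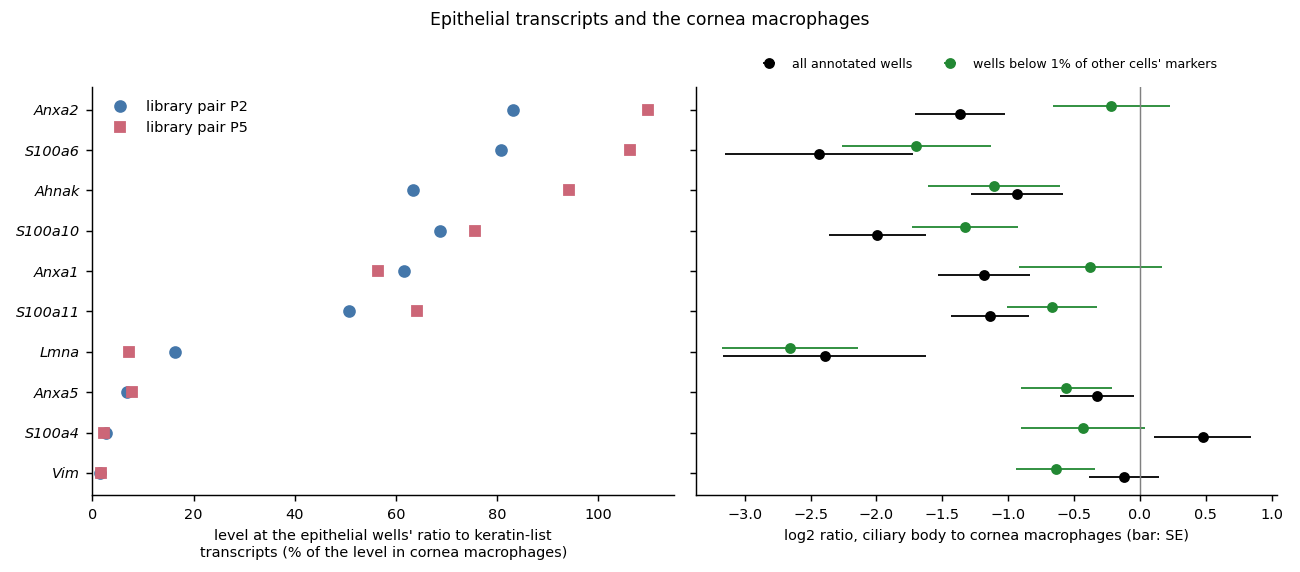
Left: for each member, its level at the ratio to epithelial marker transcripts seen in epithelial wells, as a percentage of its level in cornea macrophages (points, 1 per library pair), from 1.498% for Vim to 109.9% for Anxa2. Right: log2 ratio of ciliary body to cornea macrophages with all annotated wells (black) and with wells below 1% of other cells' markers (green); bars are SE.

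Macrophage clusters of the eye table also differed in these genes, again as a description. Clusters 7, 8 and 10, in which the microglial markers summed to 6969, 5192 and 4247 CPM, had 58.5, 40.5 and 53.6 CPM of S100a4 and 435, 212.4 and 259 CPM of Vim. Clusters 1 and 3, with 1256 and 825 CPM of the microglial markers, had 400.1 and 851 CPM of S100a4 and 1284 and 2885 CPM of Vim. In these, dendritic cell markers summed to 1558 and 1604 CPM, above macrophage markers at 585 and 1385 CPM. That list did not separate dendritic cells from control microglia in the retina, and it holds Siglech, also a microglial marker. In clusters 7, 8 and 10 the dendritic cell markers summed to 351, 506 and 741 CPM. Clusters 2 and 9, with 380 and 160 CPM of them, had 239 and 160 CPM of S100a4 and 1216 and 1344 CPM of Vim. Cluster 6, with 1199 CPM of the microglial markers, had 113.4 CPM of S100a4 and 486 CPM of Vim, and in cluster 16, with 8 cells and 2001 CPM of the microglial markers, S100a4 was at 0. Other members did not follow the first split. Anxa5 was at 359, 283 and 509 CPM in clusters 7, 8 and 10 and at 323 and 429 CPM in clusters 1 and 3. S100a6 was at 761 and 1043 CPM in clusters 7 and 8 against 523 CPM in cluster 1, and S100a10 at 259 and 405 CPM against 225 CPM. In the joint class, cluster 11, with the highest monocyte marker sum (6929 CPM), had 1572 CPM of S100a4 and 1850 CPM of Vim. The 10 cells of cluster 4, with the highest sum of 6 NK cell markers (12200 CPM), had 86.3 CPM of S100a4 and 432 CPM of Vim. For other members cluster 4 was the higher of these clusters, at 1988 against 1352 CPM of S100a6, 949.7 against 347 CPM of S100a10, 993 against 797 CPM of S100a11, 993 against 577 CPM of Anxa2 and 173 against 23.1 CPM of Lmna.

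Related genes did not all share the pattern. Anxa3, an annexin that is no member, had the reverse one: it was at 487 ± 108 CPM (SD, n = 2 pairs) in day 3 microglia and 37.5 ± 7.9 CPM in day 3 dendritic cells, a difference of -3.50 ± 0.43. Against the joint class the difference was -2.29 ± 0.45 at day 3 and -3.52 ± 0.55 at day 7, and in the eye it was -2.28 ± 0.39 for cornea and -2.29 ± 0.37 for ciliary body macrophages. Anxa6 was higher than in microglia in dendritic cells at day 3 (1.43 ± 0.41) and in ciliary body macrophages (2.57 ± 0.51). It was not called in the day 3 joint class. At day 7, 1 of the 2 other annexins tested was higher and 1 lower than in microglia in each blood-derived class. In the joint class the higher one was Anxa6. Anxa6 was not called in cornea macrophages, where it was at 49.05 ± 6.2 CPM (SD, n = 2 pairs) against 40.3 ± 8.4 CPM in microglia. It was higher in ciliary body than in cornea macrophages by 2.00 ± 0.42, whereas the 3 members called in that comparison were lower. Of 9 other annexins, 2 could be tested in the retina and 6 in the eye. Of 12 other S100 genes none could be tested in the retina and 4 in the eye, of which S100a1, S100a14 and S100a16 were higher in cornea macrophages than in microglia. The epithelial markers summed to 19093 and 26083 CPM in these cornea sums, and the part of epithelial transcripts in these 3 genes was not tested. S100a14 and S100a16 were also lower in ciliary body than in cornea macrophages, with 3 transcripts each in the ciliary body against 53 and 87 in the cornea. The ratios were 28.0 (95% exact counting interval 9.08 to 140.2; adjusted p = 0.00359) and 46.0 (15.2 to 227; adjusted p = 1.25e-04).

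Of 22 genes of membrane repair and cortical actin, 15 were tested in the retina. Of these, 5 were higher in day 3 microglia than in control (7.49% of all genes), among them Tpm4 (2.27 ± 0.47), an actin-binding tropomyosin, and Flna (1.85 ± 0.45), an actin cross-linker, and both were lower again at day 7 than at day 3. Against day 3 microglia, 1 of 15 was higher in dendritic cells, the actin cross-linker Actn1 (3.82 ± 0.49), and 3 in the joint class, where 10.9% and 7.33% of all genes were. In the eye 19 were tested against microglia. In cornea macrophages 11 were higher (16.4% of all genes), in ciliary body macrophages 8 (15.4%) and in the ciliary body joint class 10 (15.0%). An example was Plec, which links filaments to the membrane, with 57 transcripts in cornea macrophages against 2 in microglia (ratio 14.7, interval 3.90 to 125). The part of epithelial transcripts in the cornea values was not tested. Of 16 other filament and lamina genes 7 were tested, and Lmnb1, the B-type lamin, rose in day 3 microglia, to 31 transcripts from 1 in control (ratio 20.1, interval 3.35 to 819; adjusted p = 0.00499). Nes, another intermediate filament gene, was also higher in day 3 microglia, with 50 transcripts against 3 in control (ratio 10.8, interval 3.49 to 54.1; adjusted p = 0.03). It was lower in day 3 dendritic cells, with 2 transcripts, than in those microglia, which had a level 47.3 times as high (interval 12.4 to 401.5; adjusted p = 5.45e-04).

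Cd44, a surface receptor linked to the cortex through ezrin and related proteins, was at 736 ± 178.4 CPM in the day 3 joint class, 98.6 ± 5.3 CPM in dendritic cells and 109.8 ± 0.2 CPM in microglia. It was higher in the joint class than in microglia by 2.68 ± 0.34 and lower in dendritic cells than in the joint class by a log2 difference of -2.74 ± 0.32. Plaur, the receptor of urokinase, was higher than in microglia in the 3 eye classes, at ratios of 8.10, 8.37 and 19.7 in cornea macrophages, ciliary body macrophages and the joint class, whose intervals begin at 2.61, 2.76 and 6.52, with 3 transcripts in microglia.

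Across the 14 retina sums, 9 members were averaged as standardized log2 levels, and 3579 other genes of at least 50 CPM were compared with that mean by Pearson's r. The 5 closest were Ccnd2 (0.984), a cyclin, Crip1 (0.982), a LIM-domain protein gene, Itgb7 (0.971), an integrin subunit of leukocytes, Cytip (0.968) and the predicted gene Gm9844 (0.959). The sums share libraries and classes, and these values are a description. Among the members themselves the correlation with the mean of the others ran from 0.697 for Anxa5 to 0.955 for Anxa1.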

How the data were processed

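Single CD45+ cells had been sorted into plates and processed by mCEL-Seq2, per the labels' protocols; that method reads a molecular identifier on each transcript. Reads were aligned with BWA 0.6.2-r126, per the submitters' processing notes; the build, the annotation, the use of strand and the handling of reads from near-identical gene copies were not given in the sources used here. In the deposited unnormalized tables each value is the estimated count of 1 gene in 1 well, with no scaling. The deposited library tables and annotation tables hold other values: gene symbols with per-well estimated transcripts, and the authors' cell type and cluster of each well. The authors' normalized tables were not used.

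The unnormalized tables carry no gene names, so their rows were matched to the library tables by equality of all values, and each member matched 1 row in both. The well names of these tables number libraries differently from the library titles, so each was tied to its library by identity of the values; sums over a pair do not depend on this step. Those tables leave out genes that held 37.2% (retina) and 38.9% (eye) of the annotated wells' transcripts, so CPM is per 1000000 kept transcripts. Estimated counts were summed per class and library pair, rounded, and compared with edgeR 4.0.16 in R 4.3.3 (filterByExpr, TMM, robust quasi-likelihood F test), with 14 sums in the retina fit and 8 in the eye fit and calls at a p under 0.05 after Benjamini-Hochberg adjustment over all genes tested. Nothing says that pairs are separate animals, so p-values may measure technical spread. SE is the log2 change divided by the square root of F. The members and lists were chosen with earlier results of these data known. In simulated data with known changes, 89.1% of 4-fold changes were recovered for dendritic cells against microglia at day 3 (3478 genes) and 70.4% for cornea macrophages against microglia (4593 genes). The changed genes were drawn only from those above a set mean level, and the same spread was used for all genes. Members with few transcripts in microglia or a wide spread between pairs depart from this, so these rates may not hold for them. The cornea joint class (5 cells) was left out, and no doublet caller was run on sorted wells.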

Additional observations from a re-analysis of the deposited data

How the results depend on the processing

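Of 237 alternative counts of called members, 215 stayed within 1.5 times the main count, 14 were lower and 8 higher. Of 1007 alternative values of single members, 904 kept direction and side of the threshold, 82 lost and 17 gained the call, and 4 changed sign. The cause was not tested in any of these.

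With 1 pair left out, where the lone sum was assumed to vary like the other groups, dendritic cells had 5 to 8 members called against microglia at day 3 and 5 to 7 at day 7. The joint class had 6 to 7 and 7 to 8. The range was 0 to 1 for day 3 against control microglia, 0 to 1 between the days in the joint class, 1 to 3 between dendritic cells and the joint class at day 3, 0 to 1 for the change of the joint class contrast between the days, and 0 to 2 between ciliary body and cornea macrophages. Anxa5 in the joint class against microglia at day 7 ran from -0.37 to 2.50. The change of S100a6 in day 3 microglia from control ran from -2.99 to 0.81, and the interaction of S100a4 in dendritic cells from -2.99 to 3.45.

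Without a filter on low counts, 2 members were called between day 3 and control microglia, 1 between day 7 and day 3 microglia and 5 between ciliary body and cornea macrophages. With single libraries the first and last of these counts were 2 and 6. DESeq2 called 1 member between dendritic cells and the joint class and 1 between the compartments. Thinned sums gave 0 for day 3 against control microglia and 1 between dendritic cells and the joint class in 1 draw, with 0 to 1 and 0 to 2 over 10 draws. With cells whose signature call gave the same class, Ahnak was at -2.93 in dendritic cells against microglia at day 7 (adjusted p = 0.487). Chosen after seeing the data, all genes of the library tables gave 1 member between the compartments, and wells with few transcripts of other cells gave 0.

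With the library pair as a replicate block, 1 member, Ahnak, was called between the ciliary body classes (0.93, adjusted p = 0.0208), and 7 in the joint class against microglia at day 3, where Vim was at 2.03 (adjusted p = 0.088). The labels do not say that a pair is an animal, and deviations of same-library sums correlated at 0.022 to 0.182. Comparisons of cornea or ciliary body with microglia share fewer than 2 prefixes and could not be blocked.

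Low counts limit Lmna, Ahnak, Anxa1 and S100a4 in microglia, and 10 to 88 cells stand behind each retina sum.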
